A study of Mus musculus with 42 samples.

Results

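Whole-brain microglia from germ-free (GF) mice were compared with those from specific-pathogen-free (SPF) mice, in 8 of the 42 libraries of the series. The 8 were chosen by label alone, as every library whose source is whole brain: 5 with titles starting GF_8w_F_, called GF1 to GF5 here, and 3 with titles starting SPF_8w_F_, called SPF1, SPF3 and SPF4. In both groups the genotype is WT, the strain background C57BL/6 and the labelled age 6 to 12 weeks, and the labels of neither group give acetate. The labels of these 8 libraries name no C57BL/6 substrain, colony, litter, cage or individual animal, so anything else that differs between the GF and SPF mice cannot be told apart from the microbiota, and a p-value weighs a difference against the scatter among these 8 libraries alone, which may be technical. Brain cells were separated on a density gradient, and cells in the CD11b+CD45lo gate were sorted and sequenced in bulk. GF and SPF libraries of 2 other tissues, both WT and aged 16 weeks, are set beside them at the end: cortex (n = 4 each) and hippocampus (n = 3 GF and 4 SPF). By their titles, the 3 GF and 4 SPF hippocampus libraries share their mice with cortex libraries, so the values of these tissues are not independent of each other.

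Microglia are the macrophages of the brain parenchyma. They settle there before birth, renew themselves in place, and are recognised by genes such as P2ry12, Tmem119 and Sall1. They survey the tissue through purine, chemokine and pattern recognition receptors, clear debris and synaptic material, and respond to hormones that cross from the blood, glucocorticoids among them. Germ-free mice are raised without living bacteria, so their tissues develop without bacterial metabolites and with few bacterial ligands.

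The libraries held 19600412 to 25366393 counts assigned to genes in GF and 19329304 to 23747991 in SPF, and levels are given as CPM, each count scaled to its library's depth after adjustment by the trimmed mean of M values (TMM). The 10 microglial markers summed to 82900 to 86000 CPM in GF and 85400 to 86100 CPM in SPF libraries, which goes with the label. Other cell types were low but not absent. Neutrophil markers (9 of 10 in the table, 0 of which passed the filter on low counts) summed to 156 CPM in GF4 and 29.6 CPM in GF1, at most 0.387 CPM in the other GF libraries and at most 0.462 CPM in SPF libraries. Astrocyte markers summed to 203.3 to 273 CPM in GF and 193 to 235 CPM in SPF libraries, nearly all from Slc1a3, with Gfap at most 0.559 CPM. Oligodendrocyte markers summed to 160.5 to 197 CPM in GF and 156 to 194 CPM in SPF libraries, mostly from Cnp, with Olig2 at 0. B cell markers summed to 66.4 to 82.5 CPM in GF and 59.1 to 85.2 CPM in SPF libraries, nearly all from Cd79b, with Ms4a1 at 0, and endothelial markers to 42.0 to 47.4 CPM in GF and 37.9 to 53.1 CPM in SPF libraries, mostly from Pecam1, with Cldn5 at 0. Border macrophage markers, mostly Mrc1, summed to 15.8 to 32.2 CPM in GF and 9.82 to 29.5 CPM in SPF libraries. T and NK cell markers reached at most 2.09 CPM and erythroid markers at most 0.339 CPM, with the haemoglobin genes at 0 in all 8 libraries. Whether reads that match several genes were counted is not given, so a level of 0 in near-identical genes may not mean absence. The first principal component held 22.5% of the variance and placed all GF libraries on one side and all SPF libraries on the other, with GF3 farthest out. Y-linked Ddx3y had 0 counts in all 8 libraries, whose titles carry the letter F. In bulk RNA, fewer cells of a type and less RNA per cell cannot be told apart.

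GF microglia differed from SPF microglia in a small set of genes. Of 11332 genes tested with edgeR's quasi-likelihood test, 226 (1.99%) had an adjusted p under 0.05, which is what "called", "rose" and "fell" mean below. In GF microglia 116 were higher (1.02%) and 110 lower (0.971%), and 1734 genes had an unadjusted p under 0.05. The shares of 1.02% and 0.971% are those to set beside the edgeR calls of each gene list below. They do not serve for the other counts. List counts at an unadjusted p under 0.05 belong beside the 1734 of 11332 genes. List counts by DESeq2 belong beside the 346 genes it called higher and the 292 it called lower. Most differences were modest: 38 of the genes that rose and 13 of those that fell differed by at least 2-fold, while 53 and 68 differed by less than 1.5-fold. In each of the 226 genes the GF and SPF libraries did not overlap. Over all genes tested, GF libraries lay wholly above SPF libraries in 5.83% and wholly below in 5.44%. The called genes include abundant ones, with 13 of the higher and 8 of the lower averaging over 1000 CPM in GF. Leaving out 1 library changed the number called, to 83 without SPF1, 118 without SPF3, 101 without SPF4, 133 without GF4 and 167 to 242 without any other GF library. GF4 is also the library with the most neutrophil RNA, and the part of that RNA in the count was not tested. A call also depended on the tool, as DESeq2 called 638 genes, all 226 among them.

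**Figure D1:**
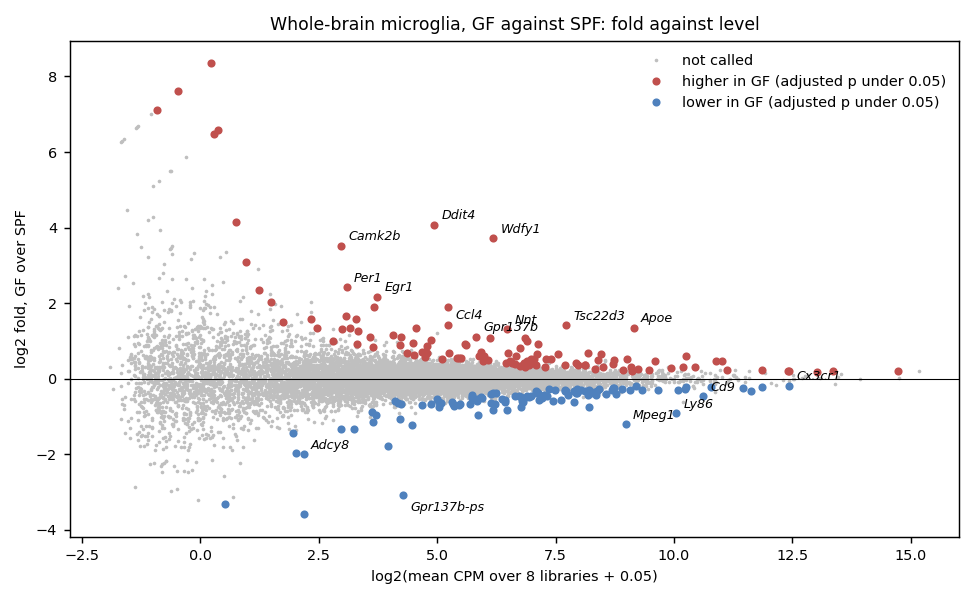
The log2 fold of GF over SPF (y axis) against the log2 mean CPM of 8 libraries (x axis) for the 11332 genes tested, with the 116 genes called higher in red and the 110 called lower in blue. Most called genes lie within 1 unit of 0, while Ddit4, Wdfy1, Camk2b and Gpr137b-ps lie beyond 3. Folds above 6 belong to genes with few or no counts in SPF libraries and are imprecise.

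Genes that glucocorticoids induce in many tissues were among the largest differences. Glucocorticoids bind the receptor encoded by Nr3c1, which then acts on DNA. Ddit4, which restrains the growth kinase complex mTORC1, had 48.7, 47.3, 47.8, 29.2 and 62.9 CPM in GF1 to GF5, against 2.03, 2.97 and 3.40 CPM in SPF1, SPF3 and SPF4. Every GF library was far above the highest SPF library, with GF4 the lowest of the GF group (log2 fold 4.07, SE 0.26, adjusted p = 1.83e-06). Tsc22d3, also called GILZ, an anti-inflammatory leucine zipper protein, had 332, 248, 258, 256 and 279 CPM in GF1 to GF5, against 85.9, 109 and 112 CPM in SPF1, SPF3 and SPF4. GF1 was the highest and no GF library came near the SPF range (log2 fold 1.42, SE 0.11, adjusted p = 1.16e-05). Fkbp5, a chaperone partner that lowers the receptor's affinity for hormone, had 134, 99.9, 128, 156 and 214 CPM in GF1 to GF5, against 75.7, 72.1 and 71.4 CPM in SPF1, SPF3 and SPF4. It was the least even of the group, with GF5 the highest and GF2 the lowest (log2 fold 1.002, SE 0.18, adjusted p = 0.0119). Sgk1, a kinase that regulates ion transport, was abundant and ranged over 1129 to 1646 CPM in GF and 869 to 974 CPM in SPF libraries (log2 fold 0.61, SE 0.10, adjusted p = 0.00783). The receptor gene itself went the other way: Nr3c1 had 267, 268, 291, 256 and 273 CPM in GF1 to GF5, against 317, 342 and 347 CPM in SPF1, SPF3 and SPF4 (log2 fold -0.31, SE 0.059, adjusted p = 0.0151).

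Of 15 genes tested on this list, 5 rose (those 4 and Per1) and 1 fell, where 1.02% of all genes tested rose and 0.971% fell, with a median log2 fold of 0.283 against 0.00268 over all genes tested. The remaining 9 did not pass, including Klf9 (log2 fold -0.38, adjusted p = 0.813), Dusp1 (log2 fold 0.60, adjusted p = 0.39), Pik3ip1 (log2 fold 0.28, adjusted p = 0.811) and the metallothionein genes Mt1 (log2 fold -0.15, adjusted p = 0.671) and Mt2 (log2 fold -0.15, adjusted p = 0.951). Zbtb16, another gene of the list, was too low to test. Ddit4, Tsc22d3 and Per1 were called whichever library was left out. Fkbp5 was not called without SPF1, SPF3 or SPF4 (log2 fold 0.83 to 1.11 over all single omissions), Sgk1 not without SPF1 or SPF4 (0.54 to 0.67), and Nr3c1 not without SPF3 or SPF4 (-0.35 to -0.29). The number of the list that rose was thus 3 without SPF1 and 3 without SPF4.

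Per1 encodes a repressor in the circadian clock and is also induced directly by glucocorticoids and by cAMP. It had 9.12, 11.5, 13.7, 11.3 and 15.4 CPM in GF1 to GF5, against 2.22, 2.09 and 2.48 CPM in SPF1, SPF3 and SPF4. The 5 GF values lay well above the 3 SPF values, which were close together (log2 fold 2.43, SE 0.25, adjusted p = 0.000122). It was the 1 gene called of 20 tested clock and clock-output genes, whose median log2 fold was -0.11. Arntl, which drives the positive limb of the clock, had log2 fold 0.50, adjusted p = 0.203, and its partner Clock log2 fold -0.10, adjusted p = 0.886. Among the repressors and output genes, Cry1 had log2 fold -0.40, adjusted p = 0.359, Nr1d1 log2 fold -0.15, adjusted p = 0.901 and Dbp log2 fold -0.16, adjusted p = 0.853. The hour at which the mice were killed is not among the labels used here.

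Immediate-early genes, which rise within minutes of a stimulus and also during cell isolation, had a median log2 fold of 0.447 over 26 tested. Of these, 18 had log2 folds above 0, and 3 rose while 1 fell. Egr1, a zinc finger factor, had 21.3, 20.05, 21.8, 17.6 and 13.03 CPM in GF1 to GF5, against 4.94, 5.39 and 2.06 CPM in SPF1, SPF3 and SPF4 (log2 fold 2.17, SE 0.29, adjusted p = 0.00146). Jdp2, a repressor of AP-1, ranged over 10.2 to 23.3 CPM in GF and 2.68 to 7.69 CPM in SPF libraries (log2 fold 1.89, SE 0.35, adjusted p = 0.0126). It was not called without SPF1 or SPF3 (log2 fold 1.61 to 2.43 over all single omissions). Nr4a1, an orphan nuclear receptor, stayed low at 2.67 to 4.90 CPM in GF and 0.501 to 1.24 CPM in SPF libraries (log2 fold 2.03, SE 0.44, adjusted p = 0.031), and 6 of 8 single omissions ended its call (1.71 to 2.26). Ier5 fell, with 117, 132, 143, 185 and 153 CPM in GF1 to GF5, against 229, 210.3 and 220.5 CPM in SPF1, SPF3 and SPF4 (log2 fold -0.59, SE 0.11, adjusted p = 0.015), and was not called without SPF1 or SPF4 (-0.69 to -0.52). Other genes of the list that cell isolation induces did not pass: Fos had log2 fold 0.97, adjusted p = 0.468, Jun log2 fold 0.04, adjusted p = 0.899, Junb log2 fold -0.23, adjusted p = 0.27, Dusp1 log2 fold 0.60, adjusted p = 0.39 and Zfp36 log2 fold 0.17, adjusted p = 0.338. Atf3 (log2 fold 0.77, adjusted p = 0.0696), Ier2 (log2 fold 0.72, adjusted p = 0.0673), Egr2 (log2 fold 1.21, adjusted p = 0.0861) and the scarce Egr3 (log2 fold 2.24, adjusted p = 0.164) had adjusted p above 0.05 although all their GF libraries lay above all SPF libraries. The part of cell isolation in these differences was not tested. DESeq2 called 7 genes of the list higher, and edgeR 1 without SPF1 and 2 without GF4, GF5, SPF3 or SPF4.

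**Figure D2:**
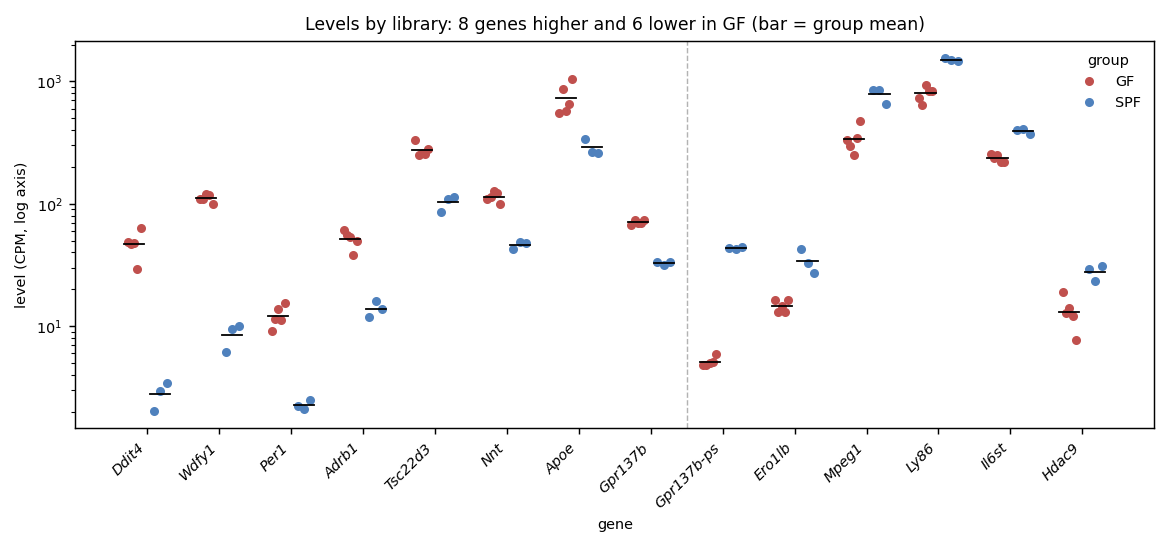
Level in CPM on a log axis for 14 genes by library, GF (red, 5 points) left of SPF (blue, 3 points), with a bar at each group mean. Genes left of the dashed line rose and those right of it fell, and in none of the 14 do the groups overlap.

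Wdfy1 and Nnt separated the groups evenly. Wdfy1, an endosomal protein that takes part in Toll-like receptor signalling, had 110.1, 109, 121, 118 and 99.3 CPM in GF1 to GF5, against 6.10, 9.40 and 9.96 CPM in SPF1, SPF3 and SPF4 (log2 fold 3.72, SE 0.16, adjusted p = 1.82e-08). Nnt, the mitochondrial transhydrogenase that makes NADPH, had 110.3, 113, 127, 123 and 99.8 CPM in GF1 to GF5, against 42.3, 48.8 and 47.98 CPM in SPF1, SPF3 and SPF4 (log2 fold 1.30, SE 0.10, adjusted p = 1.16e-05). Within a group the libraries were close together in both genes, and between groups no library came near. Both are known to differ between C57BL/6 substrains: a deletion within Nnt marks C57BL/6J. The labels give C57BL/6 and no substrain, so substrain and microbiota cannot be told apart for these genes. Of 7 genes listed as differing between C57BL/6 substrains, 3 passed the filter, namely these 2 and Ide. Ide, the insulin-degrading enzyme, was not called, and SPF3 lay apart from the other SPF libraries, with 67.8, 72.2, 78.04, 72.04 and 65.7 CPM in GF1 to GF5, against 101, 50.9 and 112 CPM in SPF1, SPF3 and SPF4 (log2 fold -0.30, adjusted p = 0.481).

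Gpr137b, a lysosomal membrane protein that takes part in mTORC1 regulation, and its pseudogene copy Gpr137b-ps moved in opposite directions while their sum stayed level. Gpr137b had 67.1, 73.1, 69.9, 69.3 and 73.1 CPM in GF1 to GF5, against 33.2, 31.8 and 33.1 CPM in SPF1, SPF3 and SPF4 (log2 fold 1.11, SE 0.094, adjusted p = 3e-05). The copy had 4.84, 4.78, 5.01, 5.11 and 5.91 CPM in GF1 to GF5, against 43.7, 42.4 and 44.01 CPM in SPF1, SPF3 and SPF4 (log2 fold -3.08, SE 0.14, adjusted p = 2.21e-08). Both separations are clean, and both were called whichever library was left out. Summed, the 2 genes had 71.9, 77.9, 74.9, 74.4 and 79.0 CPM in GF1 to GF5, against 76.9, 74.1 and 77.1 CPM in SPF1, SPF3 and SPF4. The sums overlap, with 75.6 ± 2.85 CPM in GF and 76.1 ± 1.66 CPM in SPF (SD, n = 5 and 3), a ratio of GF to SPF of 0.994. The copy made up 6.13% to 7.47% of the sum in GF libraries and 56.8% to 57.1% in SPF libraries. The groups thus differed in how the counts divided between the 2 loci, and their totals differed by less than the spread within groups.

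The reference sequences show how close the 2 loci are. Exons 2 to 6 have the same lengths in both, and over their 677 bases the annotated transcripts (GENCODE M21, build GRCm38, chromosome 13, minus strand) differ at 4 bases (99.4% identity). Of 628 stretches of 50 bases, 428 (68.2%) are identical in the 2 genes, so a read of that length that falls there cannot be assigned to one of them. Exon 5 is shown because it holds 2 of the 4 differences, in capitals at the same place in both, with Gpr137b at chr13:13363444-13363572 and Gpr137b-ps at chr13:12619766-12619894.
Gpr137b exon 5: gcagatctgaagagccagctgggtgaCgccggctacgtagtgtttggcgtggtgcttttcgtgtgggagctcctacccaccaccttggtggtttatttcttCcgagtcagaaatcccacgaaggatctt
Gpr137b-ps exon 5: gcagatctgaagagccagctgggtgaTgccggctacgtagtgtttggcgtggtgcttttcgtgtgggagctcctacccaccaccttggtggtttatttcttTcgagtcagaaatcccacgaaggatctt
The level of each gene alone is therefore uncertain. The sum does not depend on how counted reads were divided between the 2 genes. How reads with several matches were handled is not given. If they were left out, the sum holds only part of the reads of the pair.

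**Figure D3:**
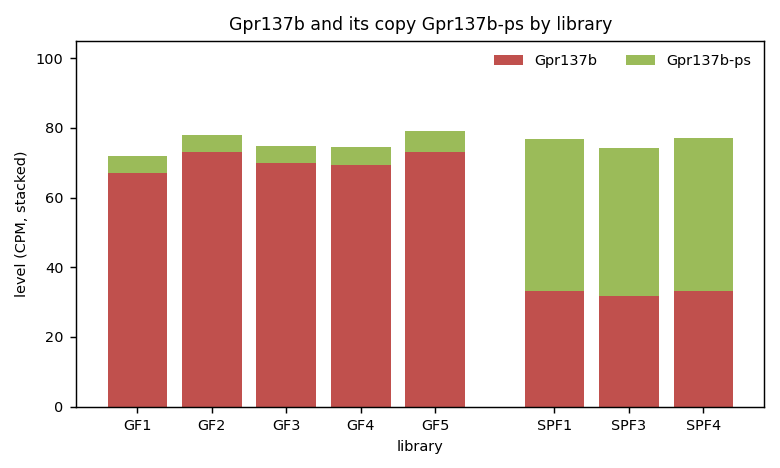
Stacked CPM of Gpr137b (red) and Gpr137b-ps (green) in each library, GF1 to GF5 on the left and SPF1, SPF3 and SPF4 on the right. The height of the stack is 71.9 to 79.0 CPM in GF and 74.1 to 77.1 CPM in SPF, while the green share is 6.13% to 7.47% in GF and 56.8% to 57.1% in SPF.

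Called genes that lie next to each other were counted, because a copy or an overlapping transcript can share reads with its neighbour. Of the 226 called genes, 31 (13.7%) had another called gene among the 3 nearest tested genes on either side. The share for called genes placed at random was not computed, so 13.7% alone does not show that called genes cluster. Of the 1350 neighbouring places, 40 (2.96%) held a called gene, against 2.0% of all genes placed. One run on chromosome 13 held 4: Lgals8 rose (log2 fold 0.36, adjusted p = 0.0478), Ero1lb fell (log2 fold -1.22, adjusted p = 0.0014), and the Gpr137b pair followed. All 4 lie within that reach of each other, so this run enters the 40 places repeatedly and raises the 2.96%. Lgals8 was not called in 7 of 8 single omissions (log2 fold 0.31 to 0.45). Some neighbours went opposite ways, such as Fcgr3, which rose, and Fcgr2b, which fell, or Ly86, which fell (log2 fold -0.92, adjusted p = 9.18e-05), and Ssr1, which rose (log2 fold 0.48, adjusted p = 0.0014). Others went together, such as Ccl3 and Ccl4, C1qb and C1qc, Enpp4 and Enpp5, and Rnase4 and Ang. Rnase4 (log2 fold 0.48, adjusted p = 9.18e-05) and Ang (log2 fold 0.53), both secreted ribonucleases, overlap on the genome, so their reads may be shared and the 2 values are not independent.

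Of 33 tested genes of cAMP and adrenergic signalling 4 rose and 2 fell, where 1.02% of all genes tested rose and 0.971% fell. The median log2 fold of the list was -0.0756, with 16 of 33 above 0. At an unadjusted p under 0.05, 7 were higher and 9 lower. Of the 4 that rose, 3 encode receptors that raise cAMP. Adrb1, the beta-1 adrenergic receptor, had 60.5, 55.8, 53.000, 38.3 and 49.4 CPM in GF1 to GF5, against 11.8, 15.999 and 13.8 CPM in SPF1, SPF3 and SPF4. GF4 was the lowest GF library and still lay above the highest SPF library (log2 fold 1.89, SE 0.17, adjusted p = 3.44e-05). Ptger4, the EP4 prostaglandin E2 receptor, had 2.503, 1.42, 2.92, 1.08 and 1.07 CPM in GF1 to GF5 and no counts in any SPF library. Its GF mean was 12.9-fold above a floor of 3 counts per library, a value that depends on the floor chosen (adjusted p = 0.00663). In cortex and hippocampus Ptger4 had log2 folds of 0.12 and -0.12 (adjusted p = 0.961 and 0.985). Gpr65, a proton-sensing receptor, ranged over 12.4 to 17.3 CPM in GF and 5.50 to 9.15 CPM in SPF libraries (log2 fold 1.10, SE 0.22, adjusted p = 0.0189). It was not called without SPF1 or SPF4 (log2 fold 0.95 to 1.35). Camk2b, a subunit of calcium/calmodulin-dependent kinase II best known from neurons, had 14.04, 16.2, 10.9, 9.51 and 8.76 CPM in GF1 to GF5, against 0.0462, 2.13 and 0.877 CPM in SPF1, SPF3 and SPF4. SPF1 was close to 0 and the spread within SPF was wide, so its fold is imprecise (log2 fold 3.52, SE 0.59, adjusted p = 0.00693). Neuronal markers summed to 1.62 to 5.03 CPM in GF and 1.91 to 4.47 CPM in SPF libraries, and their part in Camk2b was not tested. The genes that fell were Rgs2, which damps G protein signals (log2 fold -0.30, adjusted p = 0.0107, not called without SPF1 or SPF4, -0.32 to -0.27), and the adenylyl cyclase gene Adcy8 (log2 fold -1.995, adjusted p = 0.0211, not called without GF1, SPF3 or SPF4, -2.29 to -1.74). DESeq2 called 5 genes of the list higher and 6 lower. The number that fell was 1 without SPF1 or SPF3 and 0 without SPF4.

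Toll-like receptor genes and their partners were divided, with 2 of 27 tested higher (Wdfy1 and Tlr1) and 3 lower. Ly86, also called MD-1, is the secreted partner of Cd180 (RP105), a receptor that resembles Tlr4 and limits its signalling, and both fell. Ly86 had 731, 642, 938, 841 and 835 CPM in GF1 to GF5, against 1545, 1497 and 1475 CPM in SPF1, SPF3 and SPF4 (log2 fold -0.92, SE 0.091, adjusted p = 9.18e-05). Cd180 had 68.9, 52.5, 57.97, 54.8 and 58.1 CPM in GF1 to GF5, against 75.5, 93.4 and 104 CPM in SPF1, SPF3 and SPF4 (log2 fold -0.64, SE 0.12, adjusted p = 0.0122). The GF libraries lay below the SPF libraries in both genes, by more in Ly86, and Cd180 was not called without SPF3 or SPF4 (log2 fold -0.76 to -0.53). Tlr2, which senses bacterial lipoproteins, ranged over 287 to 309 CPM in GF and 351 to 405 CPM in SPF libraries (log2 fold -0.35, SE 0.059, adjusted p = 0.00693) and was not called without SPF1 (-0.40 to -0.30). Its dimer partner Tlr1 rose, at 66.1 to 85.7 CPM in GF and 51.8 to 55.1 CPM in SPF libraries (log2 fold 0.50, SE 0.10, adjusted p = 0.0236). Without GF1 or any 1 SPF library Tlr1 was not called (0.45 to 0.54). DESeq2 called 5 higher and 3 lower. Tlr4 itself had log2 fold -0.12, adjusted p = 0.648, its co-receptor Cd14 log2 fold 0.21, adjusted p = 0.0536 and the shared adaptor Myd88 log2 fold -0.09, adjusted p = 0.614.

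Downstream of these receptors, Nfkb1, which encodes the p105 and p50 subunits of NF-kB, fell with 145, 137, 121, 139.5 and 154 CPM in GF1 to GF5, against 181, 191 and 202.95 CPM in SPF1, SPF3 and SPF4 (log2 fold -0.46, SE 0.08, adjusted p = 0.00827). It was the 1 gene called of 17 NF-kB subunits and feedback genes, and was not called without SPF4 (log2 fold -0.50 to -0.41). Of 38 tested cytokines, chemokines and receptors, 2 rose (Ccl3 and Ccl4) and 2 fell (Il1a and Cx3cr1, the second described with the homeostatic genes). Ccl4 and Ccl3, chemokines encoded side by side, rose: Ccl4 had 31.6, 47.1, 52.6, 54.5 and 59.9 CPM in GF1 to GF5, against 23.2, 13.5 and 18.005 CPM in SPF1, SPF3 and SPF4 (log2 fold 1.43, SE 0.21, adjusted p = 0.00328), and Ccl3 ranged over 17.2 to 41.9 CPM in GF and 10.3 to 14.8 CPM in SPF libraries (log2 fold 1.35, SE 0.25, adjusted p = 0.0122, and without SPF3 or SPF4 it was not called, 1.20 to 1.54). Il1a, a cytokine that microglia hold ready, fell with 86.4, 86.8, 104, 85.3 and 118 CPM in GF1 to GF5, against 156, 139 and 128 CPM in SPF1, SPF3 and SPF4 (log2 fold -0.55, SE 0.11, adjusted p = 0.0219), and 5 of 8 single omissions ended its call (-0.64 to -0.48). Il6st, the gp130 chain shared by receptors of the IL-6 family, is outside that list and fell with 255, 237, 249.8, 219 and 219 CPM in GF1 to GF5, against 401, 410.4 and 371 CPM in SPF1, SPF3 and SPF4 (log2 fold -0.74, SE 0.066, adjusted p = 3.87e-05). The GF and SPF ranges lay well apart, and its call held in every single omission. Type I interferon response genes gave no call: edgeR called 0 of 33, 0 were higher and 1 lower at an unadjusted p under 0.05, and DESeq2 called 0 higher and 1 lower.

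Among Fc gamma receptors and complement, 4 of 17 tested genes rose and 1 fell. The median log2 fold of the list was -0.0509, with 7 of 17 above 0. Fcgr3, an activating receptor for IgG, had 2426, 2263, 2248, 2375 and 2332 CPM in GF1 to GF5, against 1706, 1655 and 1668 CPM in SPF1, SPF3 and SPF4 (log2 fold 0.47, SE 0.042, adjusted p = 3.44e-05). Fcgr2b, the inhibitory receptor encoded beside it, had 321, 290.3, 369, 347 and 359.95 CPM in GF1 to GF5, against 455, 427 and 465 CPM in SPF1, SPF3 and SPF4 (log2 fold -0.41, SE 0.074, adjusted p = 0.0107). Fcgr3 was thus higher and Fcgr2b lower in every GF library than in every SPF library, and Fcgr2b was not called without SPF1 or SPF4 (log2 fold -0.45 to -0.36). No other Fc gamma receptor gene of the list was called. Whether these neighbouring genes share reads was not tested. The number of the list that rose was 2 without SPF1 or SPF3. C5ar1, the receptor for the complement fragment C5a, ranged over 322 to 417 CPM in GF and 250.05 to 283 CPM in SPF libraries (log2 fold 0.49, SE 0.077, adjusted p = 0.00544). Complement C1q is made of 3 chains. C1qb (log2 fold 0.21, SE 0.035, adjusted p = 0.00783) averaged 11021 ± 125 CPM in GF and 9549 ± 412 CPM in SPF (SD, n = 5 and 3), and C1qc (log2 fold 0.19, SE 0.044, adjusted p = 0.0453) rose by as little, and C1qa had log2 fold 0.00, adjusted p = 0.993. The call of C1qb ended without SPF1 or SPF3 (0.18 to 0.24), and that of C1qc in 6 of 8 single omissions (0.15 to 0.23).

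Of 25 tested homeostatic genes 1 rose and 3 fell, and DESeq2 called 4 higher and 4 lower. Crybb1, a crystallin that marks adult microglia, had 389, 447, 400.5, 394.12 and 409.9 CPM in GF1 to GF5, against 234, 255 and 284 CPM in SPF1, SPF3 and SPF4 (log2 fold 0.66, SE 0.071, adjusted p = 0.000181). The purine receptor gene P2ry13 averaged 2906 ± 87.9 CPM in GF and 3628 ± 153 CPM in SPF (SD, n = 5 and 3) (log2 fold -0.32, SE 0.042, adjusted p = 0.00117). Gpr84, a receptor for medium-chain fatty acids, ranged over 145 to 197 CPM in GF and 228 to 258 CPM in SPF libraries (log2 fold -0.57, SE 0.094, adjusted p = 0.0069). Cx3cr1, the fractalkine receptor, averaged 5239 ± 196 CPM in GF and 5956 ± 131 CPM in SPF (SD, n = 5 and 3) (log2 fold -0.19, SE 0.039, adjusted p = 0.0291), and 5 of 8 single omissions ended its call (log2 fold -0.20 to -0.17). The defining genes P2ry12 (log2 fold -0.13, adjusted p = 0.116), Tmem119 (log2 fold 0.09, adjusted p = 0.36) and Sall1 (log2 fold -0.24, adjusted p = 0.147) did not pass. Among 20 identity transcription factors Egr1 and Cebpb rose and Nr3c1 fell. Cebpb, which drives inflammatory programmes in macrophages, had 133, 140.2, 122, 129 and 120.3 CPM in GF1 to GF5, against 69.3, 69.5 and 82.7 CPM in SPF1, SPF3 and SPF4 (log2 fold 0.80, SE 0.089, adjusted p = 0.000224), a separation that held in every single omission. Spi1, the master factor PU.1, had log2 fold 0.08, adjusted p = 0.592, and Irf8 log2 fold -0.11, adjusted p = 0.558.

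Genes of the disease-associated state, first described in microglia around amyloid plaques, were split: 6 of 32 rose and 2 fell. Apoe, a lipid carrier, had 549.9, 861, 571, 657 and 1043 CPM in GF1 to GF5, against 339, 267 and 262 CPM in SPF1, SPF3 and SPF4. GF2 and GF5 were the highest, and the lowest GF library lay above every SPF library (log2 fold 1.35, SE 0.21, adjusted p = 0.0103). Its call ended without any 1 of the SPF libraries (log2 fold 1.19 to 1.48). Lgals3, a galectin, was low at 6.53 to 14.02 CPM in GF and 2.32 to 4.80 CPM in SPF libraries (log2 fold 1.65, SE 0.31, adjusted p = 0.0131), and was not called without SPF1 or SPF4 (1.42 to 1.93). Igf1, a growth factor, was lower still at 2.08 to 5.04 CPM in GF and 0.251 to 0.924 CPM in SPF libraries (log2 fold 2.35, SE 0.55, adjusted p = 0.0473), and 7 of 8 single omissions ended its call. Ctsd, Ctsb and Cd63, which are lysosomal, were the other genes that rose. Cd9 and Cd52, a tetraspanin and a small surface glycoprotein, fell instead: Cd9 averaged 1378 ± 68.9 CPM in GF and 1894 ± 78.6 CPM in SPF (SD, n = 5 and 3) (log2 fold -0.46, SE 0.05, adjusted p = 0.000189) and Cd52 56.5 ± 5.26 CPM in GF and 99.8 ± 15.4 CPM in SPF (SD, n = 5 and 3) (log2 fold -0.82, SE 0.11, adjusted p = 0.0014), and both calls held in every single omission. The receptor Trem2 (log2 fold -0.06, adjusted p = 0.602), its adaptor Tyrobp (log2 fold 0.07, adjusted p = 0.651), Clec7a (log2 fold 0.44, adjusted p = 0.213), Axl (log2 fold 0.01, adjusted p = 0.993) and Lpl (log2 fold 0.31, adjusted p = 0.325) did not pass. The number of the list that rose was 3 without GF4, 1 without SPF1 or SPF3 and 0 without SPF4.

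Of 45 lysosomal genes tested, 6 rose and 0 fell, while 13 were higher and 1 lower at an unadjusted p under 0.05, and DESeq2 called 10 higher and 0 lower. The median log2 fold was 0.058, with 32 of 45 above 0 (28 with library size alone as the scaling). Ctsd, the aspartic protease cathepsin D and an abundant transcript, averaged 28719 ± 1250.4 CPM in GF and 24903 ± 668 CPM in SPF (SD, n = 5 and 3) (log2 fold 0.21, SE 0.038, adjusted p = 0.013). Lgmn, the asparagine endopeptidase legumain, averaged 5699 ± 154 CPM in GF and 4943 ± 169.7 CPM in SPF (SD, n = 5 and 3) (log2 fold 0.21, SE 0.039, adjusted p = 0.0137). Grn (progranulin, log2 fold 0.22, adjusted p = 0.0374), Ctsb (cathepsin B, log2 fold 0.21, adjusted p = 0.0395), Cd63 (a lysosomal tetraspanin, log2 fold 0.41, adjusted p = 0.0277) and Gpr137b, whose level apart from its copy is uncertain, were the others. These calls rested on few libraries: apart from Gpr137b, each ended in 2 to 7 of the 8 single omissions, and the list had 3 higher without GF4, 2 without SPF1, 1 without SPF3 and 2 without SPF4.

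Lysosomal genes are known to be driven by TFEB through the CLEAR element, TCACGTGA, which contains the E-box CACGTG. Upstream stretches of Ctsd and Lgmn (RefSeq, GRCm38.p6, both on the minus strand, written 5′ to 3′ along the gene) are shown with these letters in capitals. The Ctsd stretch, chr7:142387904-142388077, runs from base -250 to -77 relative to the start site and holds an E-box and, closer to the gene, a CLEAR element. The Lgmn stretch, chr12:102439121-102439156, runs from base -64 to -29 and holds an E-box.
Ctsd: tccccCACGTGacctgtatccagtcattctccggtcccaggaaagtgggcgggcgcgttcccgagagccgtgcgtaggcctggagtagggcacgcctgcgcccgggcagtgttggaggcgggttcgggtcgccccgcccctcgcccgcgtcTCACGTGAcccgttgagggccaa
Lgmn: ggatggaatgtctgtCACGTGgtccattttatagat
Each was searched on both strands of windows of the same length, 250 bases before to 50 after a start site. The E-box was in 10.9% of windows of the higher genes, 8.33% of those of the lower genes and 10.1% of those of all tested genes. The CLEAR element was in 2.33% of windows of the higher, 1.85% of the lower and 1.94% of all tested genes. A match is a description of the sequence only.

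Of 26 tested ER chaperone and unfolded protein response genes 3 rose and 1 fell, and of 15 heat shock protein genes 2 rose. Calr (calreticulin) averaged 1495 ± 79.5 CPM in GF and 1213 ± 45.1 CPM in SPF (SD, n = 5 and 3) (log2 fold 0.30, SE 0.052, adjusted p = 0.00783). Hsp90ab1, the constitutive cytosolic HSP90, had 935, 899.6, 872, 793 and 806 CPM in GF1 to GF5, against 618, 607 and 646 CPM in SPF1, SPF3 and SPF4 (log2 fold 0.46, SE 0.061, adjusted p = 0.00117). Its GF libraries lay above all SPF libraries, and its call held in every single omission. Hspa8, the constitutive HSC70 (log2 fold 0.36, adjusted p = 0.0468), Sdf2l1, a stress-induced ER protein (log2 fold 0.36, adjusted p = 0.0423), and Pdia4, a disulfide isomerase (log2 fold 0.30, adjusted p = 0.0473), also rose. Their calls ended in 6, 7 and 7 of the 8 single omissions (log2 fold 0.32 to 0.41, 0.30 to 0.42 and 0.24 to 0.33). Without SPF1 or SPF4 Calr was not called either (0.28 to 0.33). The oxidase gene Ero1lb fell, with 16.3, 12.99, 14.7, 12.9 and 16.4 CPM in GF1 to GF5, against 42.7, 32.8 and 27.03 CPM in SPF1, SPF3 and SPF4 (log2 fold -1.22, SE 0.16, adjusted p = 0.0014). Hspa5, the main ER chaperone BiP, had log2 fold 0.24, adjusted p = 0.207, and the stress-induced Hspa1a log2 fold -1.13, adjusted p = 0.602. The number of ER genes that rose was 1 with library size alone as the scaling, 1 without GF1, GF2, GF3, GF4 or SPF3 and 0 without SPF1 or SPF4.

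Energy metabolism gave few calls. No gene was called by edgeR among 35 nuclear subunits of complex I, 8 subunits and assembly factors of complex II and 35 subunits of complexes III to V. At an unadjusted p under 0.05 there were 2, 2 and 4 higher and 0, 0 and 1 lower, and DESeq2 called 0, 0 and 2 higher and 0 lower. Most members nonetheless had log2 folds above 0, namely 29 of 35, 7 of 8 and 30 of 35, with medians of 0.103, 0.155 and 0.081. With library size alone as the scaling these were 27, 7 and 26. Among 30 genes of the TCA cycle and pyruvate entry, Nnt and the cytosolic malate dehydrogenase Mdh1 rose, Mdh1 with 343, 333, 339.6, 347 and 344 CPM in GF1 to GF5, against 268, 312 and 282 CPM in SPF1, SPF3 and SPF4 (log2 fold 0.25, SE 0.059, adjusted p = 0.0483). Its call ended in 7 of 8 single omissions (log2 fold 0.20 to 0.31). Among 29 glycolysis genes the lactate dehydrogenase subunit Ldhb (log2 fold 0.24, SE 0.054, adjusted p = 0.0361) and G6pdx, the entry to the pentose phosphate pathway (log2 fold 0.39, SE 0.094, adjusted p = 0.0483), rose, and each lost its call in 6 of 8 single omissions (0.21 to 0.26 and 0.30 to 0.49). Of 14 genes of acetate uptake and acetyl-CoA use 0 were called, with 2 higher and 2 lower at an unadjusted p under 0.05 and 1 called higher by DESeq2. Acss2, which makes acetyl-CoA from acetate outside mitochondria, had 12.3, 4.34, 7.81, 7.89 and 2.65 CPM in GF1 to GF5, against 0.970, 2.88 and 1.29 CPM in SPF1, SPF3 and SPF4. The groups overlap, since GF5 lay below SPF3 (log2 fold 2.02, SE 0.51, adjusted p = 0.0576). Mitochondrial Acss1 had log2 fold -0.02, adjusted p = 0.947. Of the 4 subunits of succinate dehydrogenase, Sdha had log2 fold 0.03, adjusted p = 0.879, Sdhb log2 fold 0.18, adjusted p = 0.223, Sdhc log2 fold 0.18, adjusted p = 0.434 and Sdhd log2 fold 0.06, adjusted p = 0.774. The GF libraries of Sdhb lay above its SPF libraries, and in the other 3 the groups overlap.

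Of 22 tested phagocytosis and scavenger receptor genes 0 rose and 2, Mpeg1 and Sirpa, fell. Mpeg1, the pore-forming perforin-2 that kills engulfed bacteria, had 330.3, 297, 250.02, 345 and 477 CPM in GF1 to GF5, against 853, 848 and 654 CPM in SPF1, SPF3 and SPF4 (log2 fold -1.21, SE 0.16, adjusted p = 0.0014). Rcan1, an inhibitor of the phosphatase calcineurin, had 186, 150.1, 171, 169 and 171 CPM in GF1 to GF5, against 93.6, 97.2 and 78.3 CPM in SPF1, SPF3 and SPF4 (log2 fold 0.92, SE 0.091, adjusted p = 9.18e-05). Gpr165, an orphan receptor, ranged over 314 to 356 CPM in GF and 200.3 to 224 CPM in SPF libraries (log2 fold 0.67, SE 0.064, adjusted p = 7.3e-05). Rab4a, a GTPase of recycling endosomes, ranged over 10.3 to 15.7 CPM in GF and 2.84 to 5.18 CPM in SPF libraries (log2 fold 1.59, SE 0.25, adjusted p = 0.00561). On the lower side were Mcur1, a regulator of mitochondrial calcium uptake, at 65.1 to 77.02 CPM in GF and 115 to 129.9 CPM in SPF libraries (log2 fold -0.82, SE 0.086, adjusted p = 0.000142), the microtubule-binding gene Clip1 at 112 to 132 CPM in GF and 172 to 182 CPM in SPF libraries (log2 fold -0.56, SE 0.071, adjusted p = 0.000909), and the heparan sulfate proteoglycan gene Sdc3 at 31.5 to 58.3 CPM in GF and 76.3 to 88.2 CPM in SPF libraries (log2 fold -0.96, SE 0.16, adjusted p = 0.00645). Sirpa, the receptor for the "don't eat me" signal CD47, averaged 3514 ± 95.3 CPM in GF and 4097 ± 80.6 CPM in SPF (SD, n = 5 and 3) (log2 fold -0.22, SE 0.038, adjusted p = 0.00783). Mylip, an LXR target that degrades the LDL receptor, averaged 289 ± 11.1 CPM in GF and 387 ± 8.60 CPM in SPF (SD, n = 5 and 3) (log2 fold -0.42, SE 0.053, adjusted p = 0.000909). Each of these 9 genes was called in every single omission. Hdac9, a class IIa deacetylase, was the 1 gene called of 33 histone acetyltransferases and deacetylases (3.03%, against 1.99% of all genes tested). It had 18.8, 12.8, 14.1, 11.999 and 7.69 CPM in GF1 to GF5, against 29.02, 23.1 and 30.7 CPM in SPF1, SPF3 and SPF4 (log2 fold -1.08, SE 0.22, adjusted p = 0.0259). It was not called without GF2, GF4, SPF1 or SPF4 (log2 fold -1.24 to -0.94). In the TGF-beta list Tgfbr2, the type II receptor, fell (log2 fold -0.29, adjusted p = 0.0101, not called without SPF3, -0.32 to -0.25) and Id2, a target of the pathway, rose (log2 fold 0.55, adjusted p = 0.0435), with its call lost in 7 of 8 single omissions (0.46 to 0.69). Of 21 tested FoxO-type and PI3 kinase brake genes 0 rose and 2 fell: Inpp4b, a phosphatase that acts on PI3 kinase products, at 58.5 to 86.5 CPM in GF and 89.97 to 119.95 CPM in SPF libraries (log2 fold -0.61, adjusted p = 0.0298), and Txnip, which binds thioredoxin, at 539 to 647 CPM in GF and 672 to 771 CPM in SPF libraries (log2 fold -0.30, adjusted p = 0.032). The call of each ended in 5 of 8 single omissions (-0.74 to -0.55 and -0.36 to -0.27). Ddit4 was the 1 call among 35 mTORC1 regulators (2.86%, against 1.99% of all genes tested).

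Some large folds belong to genes of low level. Ada, adenosine deaminase, rose at 4.44 to 8.35 CPM in GF and 1.59 to 2.99 CPM in SPF libraries (log2 fold 1.58, adjusted p = 0.0274). Among those that fell, Wscd1 had 4.26 to 9.16 CPM in GF and 12.3 to 18.3 CPM in SPF libraries (log2 fold -1.33, adjusted p = 0.0157) and Enpp5, an ectonucleotidase family member, 4.45 to 10.1 CPM in GF and 16.4 to 20.3 CPM in SPF libraries (log2 fold -1.14, adjusted p = 0.027). Fmn1, a formin that assembles actin, had 6.93 to 10.8 CPM in GF and 15.9 to 22.5 CPM in SPF libraries (log2 fold -0.97, adjusted p = 0.0187). Olfm4 (log2 fold -1.96, adjusted p = 0.0483), Pola1, a subunit of DNA polymerase alpha (log2 fold -1.43, adjusted p = 0.0323), and Prdm15 (log2 fold -1.32, adjusted p = 0.0483) also fell, at GF means of 1.92, 2.33 and 4.97 CPM. Each of these 7 calls ended in 2 or more single omissions, and those of Olfm4 and Prdm15 in 7 of 8. Ppap2a, a lipid phosphate phosphatase and chromosomal neighbour of Il6st, fell at 86.8 to 98.4 CPM in GF and 131 to 149.9 CPM in SPF libraries (log2 fold -0.58, adjusted p = 0.00127) and was called in every single omission.

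Several groups had no call by edgeR. Of 68 cytosolic ribosomal protein genes 0 were called, 0 were higher and 7 lower at an unadjusted p under 0.05, and DESeq2 called 0 higher and 3 lower. Their median log2 fold was -0.197, with 16 of 68 above 0. These genes took 0.131% to 0.175% of counts in GF and 0.169% to 0.193% in SPF libraries. Whether reads that match several genes were counted is not given, so reads of genes with near-identical copies may be missing from these values. Of 10 MHC class II genes 0 were called (1 higher and 1 lower at an unadjusted p under 0.05, none by DESeq2), and in MHC class I presentation Calr was the 1 call of 16. Of 20 sterol synthesis genes and 23 proliferation genes 0 were called, with 0 higher and 1 lower in each at an unadjusted p under 0.05, and none by DESeq2.

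**Figure D4:**
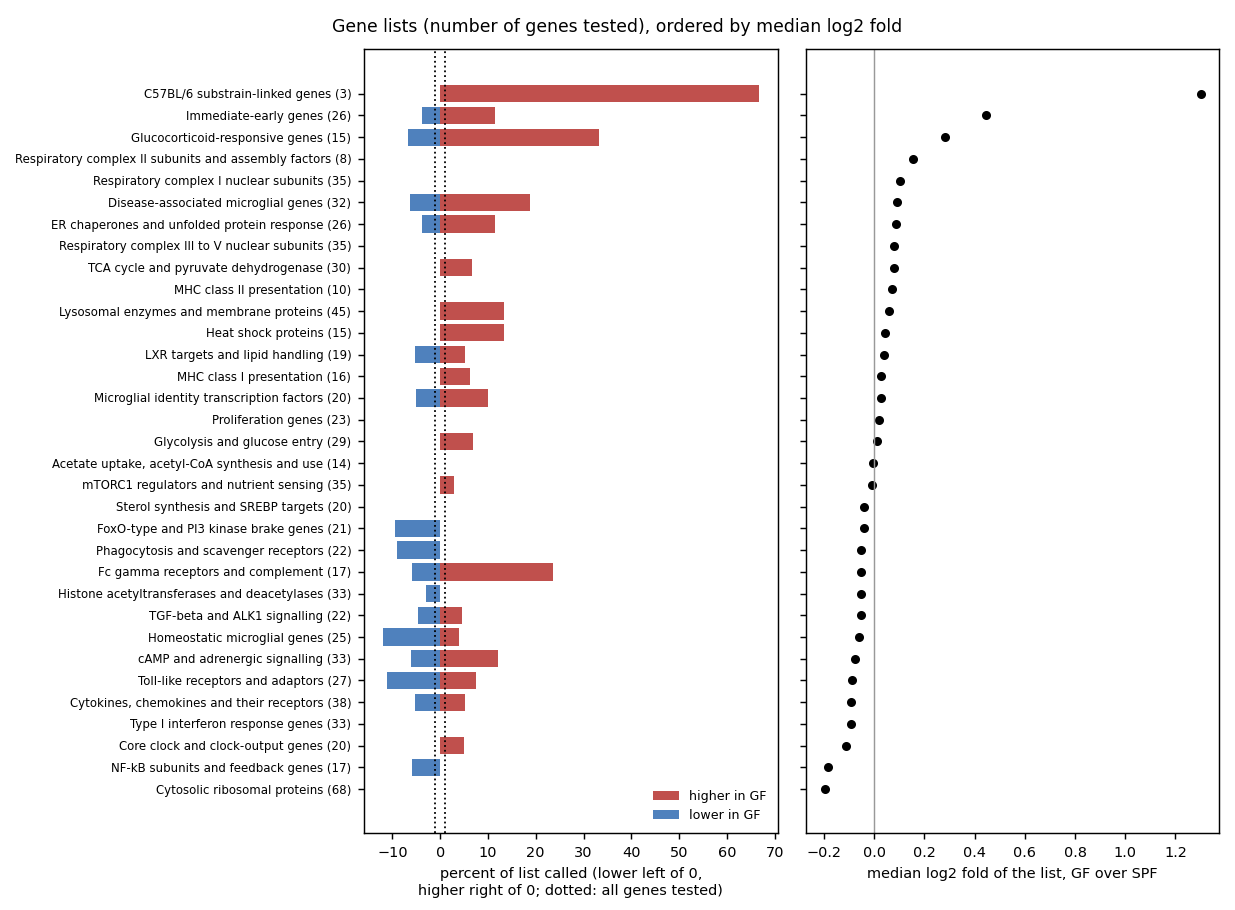
Left, the percent of each list's tested genes called higher (red, to the right of 0) and lower (blue, to the left) in GF, with dotted lines at the share of all genes tested, 1.02% and 0.971%. Right, the list's median log2 fold of GF over SPF. Lists are ordered by that median, from the substrain-linked genes (3 tested) at the top to cytosolic ribosomal proteins (68 tested) at the bottom.

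Promoter sequence was described for the called genes with a RefSeq window (GRCm38.p6, 250 bases before to 50 after a start site), 129 windows for 96 higher genes, 108 for 85 lower genes and 11676 for all tested genes. Each motif was searched on both strands. The core of the glucocorticoid receptor palindrome, ACANNNTGT, was in 8.53% of windows of the higher genes, 8.33% of those of the lower genes and 4.08% of all windows. The windows of Ddit4, Tsc22d3 and Per1 do not hold these letters. AP-1 letters, TGANTCA, were in 3.1% of windows of the higher, 9.26% of the lower and 4.8% of all genes. The cAMP element TGACGTCA was in 0.775%, 3.7% and 3.19%, and the shorter TGACG, which it contains, in 24.8%, 24.1% and 31.6%. Over the genes DESeq2 called, the glucocorticoid core was in 8.36% of windows of the higher and 5.26% of the lower genes, the AP-1 letters in 2.31% and 6.25%, and the cAMP element in 2.31% and 2.96%. The share of 0.775% by edgeR is 1 window of 129, and that of 2.31% by DESeq2 is 8 of 347. These counts are of letters and not of bound sites, and overlapping windows of the same gene can hold the same site, as in Fcgr3.

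Stretches that hold these letters are shown for genes described above, 5′ to 3′ along the gene, with the motif in capitals. Per1 (chr11:69098768-69098803, plus strand) holds an E-box, the letters through which the clock acts, at base -166 from a start site. Rcan1 (chr16:92400167-92400268, minus strand) holds a cAMP element, the glucocorticoid core and an AP-1 element between bases -190 and -89. Fcgr3 (chr1:171059468-171059506, minus strand) holds the glucocorticoid core. Il1a (chr2:129309973-129309999, minus strand) and Hdac9 (chr12:34528925-34528961, minus strand), which fell, each hold an AP-1 element.
Per1: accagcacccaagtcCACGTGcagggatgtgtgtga
Rcan1: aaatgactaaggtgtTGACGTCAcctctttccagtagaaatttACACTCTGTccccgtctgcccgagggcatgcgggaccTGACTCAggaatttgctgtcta
Fcgr3: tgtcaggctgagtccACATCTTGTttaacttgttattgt
Il1a: aaaggcagagaagccTGACTCAgactt
Hdac9: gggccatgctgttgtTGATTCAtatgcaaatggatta

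The same contrast in cortex and hippocampus, fitted apart on older mice, was set beside whole brain. Of the 20 higher genes chosen in whole brain for size of fold or p, 8 were called higher and 0 lower in cortex, where 0.873% of genes were called higher, and 4 higher and 0 lower in hippocampus, where 0.328% were. Of the 20 lower genes, 19 were tested in both, with 5 called lower and 0 higher in cortex (0.84% of all genes were called lower) and 2 lower and 0 higher in hippocampus (0.399%). Gpr137b had log2 fold 1.11 in whole brain, 1.05 in cortex and 0.97 in hippocampus (adjusted p = 3e-05, 0.00106 and 0.0224). Its copy Gpr137b-ps had log2 fold -3.08, -1.20 and -1.10 in the same order (adjusted p = 2.21e-08, 0.364 and 0.59). The GF libraries of the copy lay wholly below SPF libraries in each tissue. Because the 2 genes are nearly identical, the level of either alone is uncertain. Nnt had log2 fold 1.30 in whole brain, 0.71 in cortex and 0.91 in hippocampus (adjusted p = 1.16e-05, 0.00479 and 0.0126). Wdfy1 had log2 fold 3.72 in whole brain, 0.91 in cortex and 1.09 in hippocampus (adjusted p = 1.82e-08, 0.0102 and 0.0274), and the difference in fold between tissues was not tested. Ddit4 had log2 fold 4.07 in whole brain, 3.24 in cortex and 3.41 in hippocampus (adjusted p = 1.83e-06, 0.28 and 0.125), so it was called in whole brain only of the 3 tissues, and whether its fold differs between them was not tested. Tsc22d3 had log2 fold 1.42, 1.91 and 1.55 in the same order (adjusted p = 1.16e-05, 0.21 and 0.176). Per1 had log2 fold 2.43, 1.22 and 1.96 (adjusted p = 0.000122, 0.192 and 0.0316), so it was also called in hippocampus. The GF libraries of Ddit4, Tsc22d3 and Per1 lay wholly above SPF libraries in each tissue. Fkbp5 and Sgk1 were not set beside these tissues.

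Other genes had different values in the other tissues, and none of these differences was tested. Egr1, 4.51-fold higher in whole-brain GF libraries, had log2 fold 2.17 in whole brain, -0.24 in cortex and 0.19 in hippocampus (adjusted p = 0.00146, 0.881 and 0.927). The chaperone genes had folds of the other sign: Hsp90ab1 had log2 fold 0.46 in whole brain, -0.46 in cortex and -0.61 in hippocampus (adjusted p = 0.00117, 0.123 and 0.369), and its GF libraries lay wholly above SPF libraries in whole brain and wholly below them in the other tissues. Calr had log2 fold 0.30 in whole brain, -0.29 in cortex and -0.42 in hippocampus (adjusted p = 0.00783, 0.139 and 0.0789), and Sdf2l1 log2 fold 0.36 in whole brain, -0.46 in cortex and -0.60 in hippocampus (adjusted p = 0.0423, 0.0578 and 0.223). The lysosomal genes Ctsd and Lgmn also lay wholly above in whole brain and wholly below in hippocampus, with log2 folds of -0.33 and -0.20 there. Mrc1, the mannose receptor of border macrophages, was not called in whole brain, with 14.6 to 31.1 CPM in GF and 9.27 to 25.7 CPM in SPF libraries that overlap. It had log2 fold 0.26 in whole brain, -1.61 in cortex and -1.62 in hippocampus (adjusted p = 0.749, 0.00109 and 0.39). Y-linked Ddx3y, at 0 in whole brain, averaged 108 CPM in GF and 121 CPM in SPF cortex, and 117 CPM in GF and 124 CPM in SPF hippocampus. Tissue, sex by this gene, age and count table all differ between whole brain and the other libraries and cannot be told apart.

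**Figure D5:**
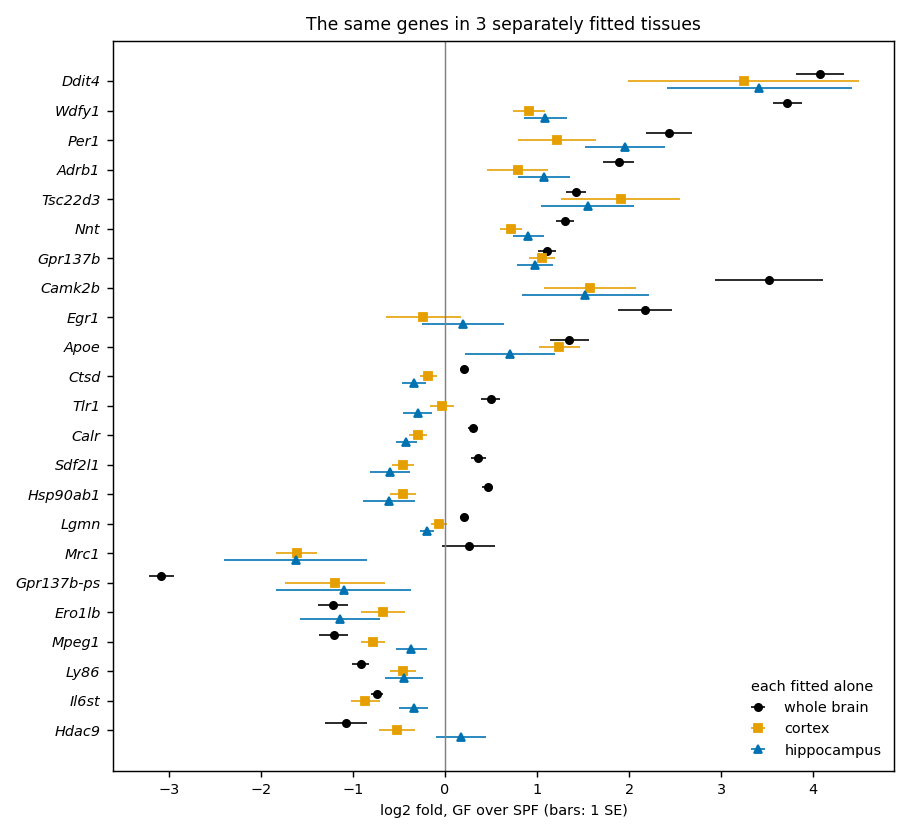
The log2 fold of GF over SPF (x axis, bars 1 SE) for 23 genes, in whole brain (black), cortex (orange) and hippocampus (blue), each tissue fitted apart. The cortex and hippocampus fits also held libraries of other groups. Ddit4, Wdfy1, Nnt and Gpr137b lie right of 0 in each, while Calr, Sdf2l1 and Hsp90ab1 lie right of 0 in whole brain and left of it in the other tissues.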

How the data were processed

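RNA from sorted whole-brain microglia in 5 GF and 3 SPF libraries was analysed from the raw read counts per gene that the authors deposited, 1 table per library. Per the submitters' processing notes, STAR 2.5.2b and featureCounts 1.5.1 were used. Those notes name GRCh38, a human build, although the tables hold mouse gene symbols. The annotation, the use of strand and the handling of reads with several matches are not given in the sources used here, so antisense, overlapping and near-identical genes are uncertain. The labels put each library in its group, and 0 columns of counts were without a sample.

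The 8 libraries were fitted alone with edgeR 4.0.16 in R 4.3.3 (quasi-likelihood test, two-sided, robust dispersion, a filter with a minimum count of 10, TMM, Benjamini-Hochberg adjustment over 11332 of 24421 genes). Cortex and hippocampus were fitted separately with the same test, but on more groups. The cortex fit also held libraries of acetate-treated GF mice. The hippocampus fit held all hippocampus libraries, with acetate-treated GF mice and the 5xFAD genotype among them. Filter, scaling and dispersion there rest on all these libraries, while the folds compare WT GF with WT SPF. Standard errors are the log2 fold divided by the square root of F. On simulated data with 200 changed genes this test recovered 65% of genes changed by 1 and 85% of genes changed by 2 log2 units, and 5.06% of its calls were false. DESeq2 1.42.0, limma-voom (limma 3.58.1), other scalings and filters, and omission of each library were alternatives. Libraries with the same number did not deviate together (correlations of -0.00287, -0.0366 and -0.0095), and no pairing by number was used. A litter, cage or batch shared across the groups was not tested. No 2 libraries agreed within sampling noise.

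Up to 12 called genes per direction by fold, 8 more by p, 3 per list and direction, and a fixed set were named. Fkbp5, Sgk1, C1qc, Ctsb, Grn, Cd63, Igf1, Lgals8, Ssr1, Ang and the genes given as not called were named after their values were seen. The comparison and all lists were chosen with earlier results of these data known. Sequences are from RefSeq (GRCm38.p6) and GENCODE M21, with Python 3.11.15. A floor of 3 counts per library was used where SPF had none. Some results that were computed are not reported here.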

Additional observations from a re-analysis of the deposited data

Results flagged for a closer look

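Among 101 sets of 5 GF values checked, 6 held a library far from the other 4, where chance gives about 1 in 20. Of the 6, 3 were in GF4. Its neutrophil markers summed to 156 CPM (0 to 29.6 CPM in the other GF libraries), its monocyte markers to 24 CPM (8.14 to 9.88 CPM in the others) and its Fmn1 level was 6.93 CPM (9.85 to 10.8 CPM in the others). In GF4 the monocyte sum came mostly from Chil3, at 18.1 CPM, while Ccr2 was at 0.125 CPM. Whether its neutrophil and monocyte sums are separate events was not tested. The remaining 3 were Trem2 at 1590 CPM in GF2 (1460 to 1480 CPM in the others), erythroid markers at 0.339 CPM in GF1 (0 to 0.086 CPM in the others), and GF3 on the first principal component, at -48.3 against -12.8 to -3.44.

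In 7 genes the GF libraries lay wholly on one side of SPF in whole brain and wholly on the other side in another tissue, and the difference itself was not tested. All 7 did so in hippocampus, among 83 named genes tested in both tables (8.43%), and 1 in cortex, among 82 (1.22%). Of all genes tested in both tables, 80 of 10654 (0.751%) did so in hippocampus and 22 of 10566 (0.208%) in cortex. Of 218 genes called in whole brain and tested in the other table, 15 (6.88%) did so in hippocampus and 1 (0.459%) in cortex. More genes kept the same order without overlap: 26 of the 83 named genes (31.3%) in hippocampus and 26 of the 82 (31.7%) in cortex. Among the 218 called genes 60 (27.5%) and 68 (31.2%) kept it, and among all genes 1.45% and 1.52%. Every called gene was without overlap in whole brain, so shares of called or named genes are not comparable with those of all genes. The log2 folds were 0.21 in whole brain and -0.33 in hippocampus for Ctsd, 0.21 and -0.20 for Lgmn, 0.50 and -0.30 for Tlr1, and 0.24 and -0.20 for Ldhb. They were 0.30 in whole brain and -0.42 in hippocampus for Calr, and 0.36 and -0.60 for Sdf2l1. Hsp90ab1 had 0.46 in whole brain, -0.46 in cortex and -0.61 in hippocampus.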

How the results depend on the processing

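The 226 genes called (116 higher, 110 lower) became 638 (346 and 292) with DESeq2, which held all 226. Other scalings, other filters, limma-voom and a dispersion fit that was not robust gave 210 to 301. With library size alone as the scaling 99 genes were higher and 129 lower. Leaving out 1 library gave 83 to 242 (46 to 116 higher, 37 to 126 lower). A replicate block on libraries 1, 3 and 4 gave 51 (34 and 17). The same 6 libraries with no block, an alternative chosen after seeing the data, gave 116 (63 and 53), so fewer libraries were part of that drop. Of 83 called genes described, 27 were called in every setting and 36 in every single omission. The sum of Gpr137b and its copy kept a ratio of GF to SPF of 0.982 to 1.006, and none of 16 motif shares moved beyond its counting interval. For the motifs the alternative was the DESeq2 genes, which hold all the edgeR genes. Intervals from few windows are also wide, so this check could hardly show a move. Of 1122 alternative list counts 184 differed from the reported count by over 1.5 times. Sign changes were limited to genes that were not called: Acss1 had log2 folds of -0.071 to 0.021 over single omissions (0.018 without GF3, 0.021 without SPF4), gene Sdha -0.00113 (without GF4) to 0.062, and Mrc1 -0.086 (without SPF3) to 0.51. With 3 SPF libraries, small differences in genes of low count are not resolved.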
